A study of Mus musculus with 2 samples.

Results

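The genes of DNA replication and S phase described here are a set of 33, chosen by name, which were found in both expression matrices among 27998 gene rows. They were followed in single spleen cells that a sort had kept for CD11b and Gr1, surface antigens of neutrophils and of many monocytes. The Wild Type library came from 5 pooled spleens of control FVB/n mice. The PyMT library came from 3 pooled spleens of mice with tumours, whose strain label reads PYMT and names neither the background nor the promoter of the transgene. Both libraries went through the same red cell lysis, sort and 3′ chemistry, and ages are not given in the sources used here. Each group is 1 library of pooled mice, so no difference has a replicate check and no test between the groups exists. Intervals are 95% and cover counting error only.

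A cell copies its genome once per division. Origins are licensed in G1 when Cdc6 and Cdt1 load the ring of Mcm2 to Mcm7 onto DNA; in S phase Cdc45 and the GINS complex turn that ring into an active helicase, polymerases follow, and clamps, nucleases, ligase and nucleotide enzymes complete the strands. Many of the genes are switched on together before S phase by E2F transcription factors, while cells that have left the cycle keep them low. In granulocyte development the early precursors divide and the later neutrophil stages do not. Genes of the secondary granules, such as Camp, are made between those stages.

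The promoters of 5 members are shown because they differ in the letters bound by E2F factors. Among single Wild Type cells only Slbp stood well apart from the other genes shown (below). Rrm2, which like Slbp had no match, did not. Each run covers 200 bases before to 30 bases after the RefSeq start site on GRCm38.p6, 5′ to 3′ on the strand of the gene. Capitals mark matches on either strand to TTTCCCGC, TTTCGCGC, TTTGCCGC or TTTGGCGC, and neighbouring capitals can be overlapping matches. Mcm5 (chr8:75109309-75109538, plus strand) and Mcm6 (chr1:128359676-128359905, minus strand) encode helicase subunits, and 2810417H13Rik (chr9:65890123-65890352, plus strand), named Pclaf in GENCODE, encodes a partner of the PCNA clamp. Rrm2 (chr12:24708054-24708283, plus strand) encodes the small subunit of ribonucleotide reductase, and Slbp (chr5:33652545-33652774, minus strand) encodes the protein that binds the stem-loop of histone messages.
Mcm5: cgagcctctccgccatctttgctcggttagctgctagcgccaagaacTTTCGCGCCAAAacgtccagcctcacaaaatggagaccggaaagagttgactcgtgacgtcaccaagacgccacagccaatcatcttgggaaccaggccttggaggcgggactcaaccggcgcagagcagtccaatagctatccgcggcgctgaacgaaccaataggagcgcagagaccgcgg
Mcm6: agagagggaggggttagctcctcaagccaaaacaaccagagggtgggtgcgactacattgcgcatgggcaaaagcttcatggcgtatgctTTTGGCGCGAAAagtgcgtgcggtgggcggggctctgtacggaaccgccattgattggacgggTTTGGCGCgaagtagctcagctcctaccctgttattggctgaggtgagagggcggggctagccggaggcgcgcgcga
2810417H13Rik: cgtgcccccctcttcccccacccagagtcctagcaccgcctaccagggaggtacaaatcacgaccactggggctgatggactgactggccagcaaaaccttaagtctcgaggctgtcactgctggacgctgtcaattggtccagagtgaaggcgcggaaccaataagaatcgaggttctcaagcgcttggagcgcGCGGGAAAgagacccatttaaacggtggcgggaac
Rrm2: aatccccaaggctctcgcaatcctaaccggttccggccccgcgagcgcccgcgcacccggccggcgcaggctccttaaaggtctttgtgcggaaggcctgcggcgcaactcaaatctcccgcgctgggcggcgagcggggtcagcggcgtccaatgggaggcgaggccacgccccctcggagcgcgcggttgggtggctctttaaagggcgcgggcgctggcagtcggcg
Slbp: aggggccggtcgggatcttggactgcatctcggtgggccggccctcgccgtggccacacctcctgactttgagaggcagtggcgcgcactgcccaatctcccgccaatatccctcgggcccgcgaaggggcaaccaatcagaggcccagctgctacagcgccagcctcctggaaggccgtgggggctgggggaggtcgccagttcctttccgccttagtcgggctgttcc
In these windows Mcm5 held 2 matches that overlap, Mcm6 held 3, of which a pair overlap, 2810417H13Rik held 1, and Rrm2 and Slbp held 0. RefSeq windows of 300 bases, from 250 before to 50 after the start, were available for 27 of the 33 members, Mcm4, Gins1, Gins2, Ccne2, Pole and Rfc2 being the others. At least 1 match stood in 10 of those 27 genes (37.0%, exact binomial interval 19.4 to 57.6%), compared with 704 of 27025 genes with a promoter window (2.60%). The 10 genes were Mcm3, Mcm5, Mcm6, Mcm7, Cdc6, Cdt1, Pola1, Lig1, Uhrf1 and 2810417H13Rik. The same letters without the first T, which every match above also contains, stood in 17 of the 27 (63.0%) against 10.9% of all genes. CCAAT on either strand, the letters bound by NF-Y, stood in 16 of 27 members (59.3%) against 41.1% of all genes. TTTGAA, the core of the element known from genes of late cell cycle, stood in 3 of 27 (11.1%) against 20.2%. In a list of 40 mitosis genes, 34 had a window, with TTTGAA in 26 (76.5%) and the longer E2F letters in 0. A match is a run of letters and not a measured binding site.

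Cells were put into classes by transcripts that are not members of the set. Progenitors had at least 0.1% of their UMIs, the counted molecules, from Mpo, Elane, Prtn3 and Ctsg, the genes of the primary granules. Neutrophils were other cells with at least 10% of UMIs from S100a8 and S100a9 and fewer than 2 from the B cell receptor genes Cd79a and Cd79b, split by Camp into high (at least 4% of UMIs), mid (1 to 4%) and low (under 1%). Monocytes had under 5% S100a8 and S100a9 and at least 2 UMIs of Csf1r and Ccr2, and B cells under 5% and at least 3 UMIs of Cd79a and Cd79b. In the order Wild Type and PyMT, the classes held 46 and 50 progenitors, 3420 and 1610 Camp-high, 467 and 1800 Camp-mid and 55 and 2055 Camp-low neutrophils, 599 and 1580 monocytes and 304 and 1081 B cells. The classes are ranges of a level rather than separate types: 294 Wild Type and 904 PyMT neutrophils had Camp between 3.5 and 4.5%. In each library 71 cells met both the monocyte and the B cell rule and were kept as monocytes, and 600 and 974 cells fell in no class. The class names are those of the rules, and the rules used some of the markers. Summed myeloid progenitor markers were at 6627 and 10484 CPM in progenitors and at no more than 690 CPM in the other 5 classes. Neutrophil markers in the same progenitors were far above these, at 281090 and 218350 CPM, so the class holds cells with primary granule genes and neutrophil transcripts together. Monocyte markers were at 4839 and 5623 CPM in monocytes, and B cell markers at 8115 and 9706 CPM in B cells, each the highest of the 6 classes. B cells are not a CD11b+ Gr1+ type, yet they were present in both libraries. Neutrophil markers summed to 13031 and 20832 CPM in B cells, a class whose rule allows under 5% of UMIs from S100a8 and S100a9. The source of these transcripts and their part in the members' counts were not tested.

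The libraries held 42542700 UMIs in 5491 cells and 73435307 UMIs in 9155 cells, with 72 barcodes in both. Depth differed within classes: the median Camp-high neutrophil held 5739.5 UMIs in Wild Type and 11522 in PyMT, so shares of cells are given after thinning every cell to 2500 UMIs. Levels are member UMIs scaled to the UMI total of the class and given as CPM. Difference calls are given for members with at least 50 UMIs in both libraries together and a ratio of at least 1.5-fold.

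In both libraries the set was highest in progenitors and lowest in Camp-low neutrophils. The summed level in progenitors was 2252 CPM in Wild Type (2161 to 2346) and 3310 CPM in PyMT (3200 to 3423). Camp-high neutrophils stood at 592 (582 to 601) and 307 CPM (299 to 315), Camp-mid neutrophils at 377 (355 to 399) and 256 (249 to 264), and Camp-low neutrophils at 166 (116 to 230) and 147 (139 to 154). Monocytes stood at 396 (377 to 417) and 456 CPM (444 to 468), and B cells at 465 (429 to 503) and 558 (536 to 581). The PyMT level was thus the higher in progenitors, monocytes and B cells and the lower in Camp-high and Camp-mid neutrophils, while in Camp-low neutrophils the intervals of the levels overlapped. The Camp-mid direction turns with other scalings, as given below.

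**Figure D1:**
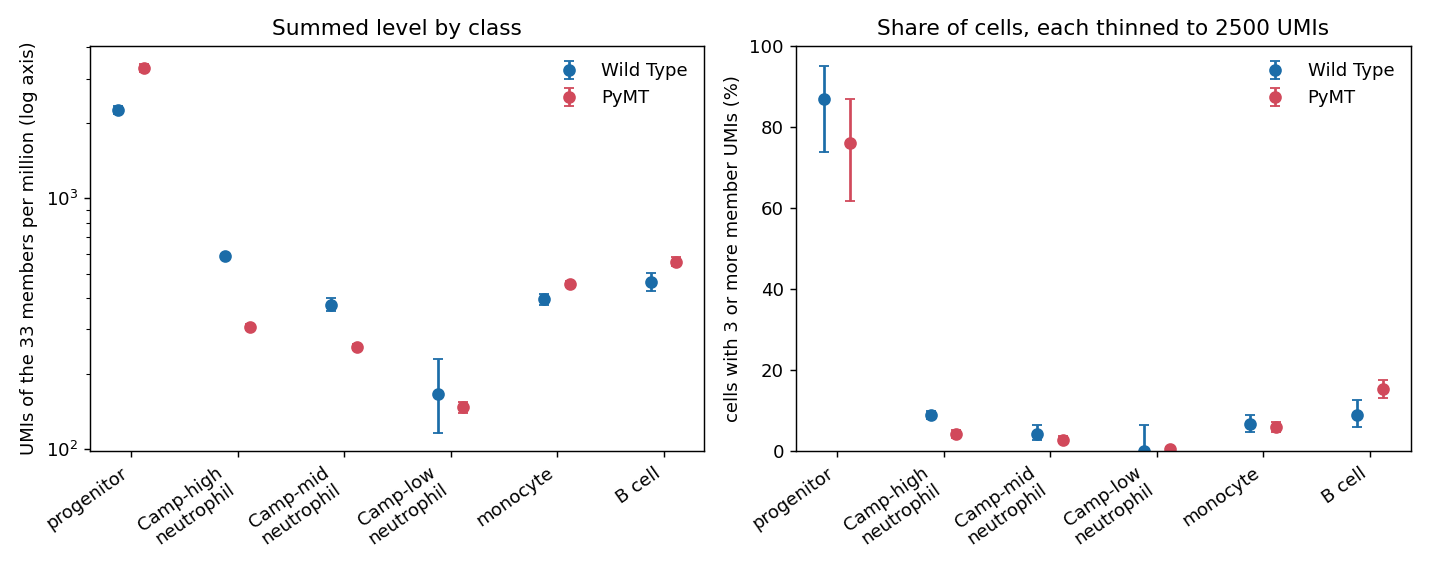
Summed level of the 33 members (left, CPM of the class total, log axis) and share of cells with at least 3 member UMIs after thinning to 2500 UMIs (right, %), for the Wild Type library (blue) and the PyMT library (red) in 6 classes; points are values of 1 library, bars are 95% counting intervals. Progenitors stand at 2252 and 3310 CPM and Camp-high neutrophils at 592 and 307 CPM; the Camp-mid order turns with other scalings.

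Among the members 32 of 33 had their highest class level in progenitors in both libraries. The exception was Rfc2, a subunit of the clamp loader, which was highest in B cells, at 115 and 127 CPM, against 98.5 and 120 in progenitors. The intervals overlapped, at 97.8 to 135 in B cells and 80.2 to 120 in progenitors of Wild Type. In PyMT they were 116 to 138 and 99.8 to 143, so this order is within counting error. The lowest class level was in Camp-low neutrophils for 27 members in Wild Type and 29 in PyMT. There, 24 members had 0 UMIs in the 55 Wild Type cells, and Rfc2 and Slbp together made up 80.6% of the member UMIs, against 68.3% in PyMT. In Camp-high neutrophils the same pair made up 17.7% in Wild Type and 25.7% in PyMT.

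The share of cells with at least 3 member UMIs, called positive here, was 87.0% of progenitors in Wild Type (40 of 46 cells) and 76.0% in PyMT (38 of 50). That difference, -11.0 points with an interval of -27.3 to 6.20, turned to 10.3 points at 1000 UMIs per cell and to 20.3 with at least 5 UMIs, so it has no stable direction. The share was 8.92% of Camp-high neutrophils in Wild Type (305 cells, 7.98 to 9.92%) and 4.22% in PyMT (68 cells, 3.29 to 5.32%), a difference of -4.69 percentage points (-6.06 to -3.25). Camp-mid neutrophils had 4.28% (20 cells) and 2.83% (51 cells), a difference whose interval, -3.81 to 0.42 points, included 0. In Camp-low neutrophils, late cells that should lack cycling members, the shares were 0 of 55, which allows a share of up to 6.49%, and 0.633% (13 cells), at median depths of 3326 and 4059 UMIs before thinning. The Camp-high shares of both libraries lay above that PyMT share.

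Monocytes had shares of 6.68% (40 cells) and 5.89% (93 cells), with a difference of -0.79 points (-3.35 to 1.47). B cells had 8.88% (27 cells) and 15.3% (165 cells), a difference of 6.38 points (2.06 to 10.1), which was -0.49 points at 1000 UMIs per cell and -0.021 with at least 5 UMIs. Before thinning the Camp-high shares were 15.5% in Wild Type and 18.5% in PyMT, in the opposite order, beside the larger depth of the PyMT cells. The unthinned shares were 27.5% and 38.7% in monocytes and 25.7% and 32.4% in B cells.

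The Camp-high neutrophils, the largest class of the Wild Type library, had lower levels of nearly the whole set in PyMT. Of 32 members with at least 50 UMIs, 27 were at least 1.5-fold lower and 0 higher, beside 39.8% lower and 3.36% higher among all 8987 genes so measured in the class. The median log2 ratio of the 32 members was -1.08, and that of all genes was -0.43, so part of the shift was shared with most genes. The summed set had a log2 ratio of -0.95 (-0.99 to -0.90). With scaling by a trimmed mean of M-values, which moved log2 ratios by 0.44, 20 of the 32 were still lower and 0 higher, beside 17.9% and 11.9% of all genes. Pole, the gene of the leading-strand polymerase, had under 50 UMIs. Markers of other cell types also moved in this class: dendritic cell markers summed to 379 CPM in Wild Type, with 8 of 9 detected and Clec9a at 0, and to 78.9 in PyMT, with 7 of 9 detected and Clec9a and Siglech at 0. The dendritic list includes the class II genes H2-Aa and H2-Ab1, and its sum was highest in B cells, at 10849.2 and 13922.5 CPM. It therefore does not single out dendritic cells. Erythroid markers summed to 11.4 CPM (9 of 11 detected, Klf1 and Alas2 at 0) and 71.3 CPM (11 of 11). Their part in the ratio of the members was not tested.

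In this class licensing was lower in 8 of 8 members, beside 39.8% of all genes, and had a summed log2 ratio of -1.06. Mcm5 stood at 19.6 CPM in the Wild Type library and 8.93 in PyMT (log2 ratio -1.13), and Mcm3, another helicase subunit, at 9.53 and 3.12 CPM (-1.61). Mcm2, Mcm4, Mcm6 and Mcm7 lay between -1.22 and -0.77. The loaders Cdc6, at 2.74 and 1.30 CPM, and Cdt1, at 7.47 and 3.64 CPM, had log2 ratios of -1.08 and -1.04. All 8 intervals lay below 0, and that of Mcm3 overlapped all the others except that of Mcm6.

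The genes that activate the helicase were lower for 3 of 4 members, beside the same 39.8% of all genes. Mcm10, which joins the helicase when it starts to unwind, stood at 2.29 and 0.623 CPM (log2 ratio -1.88). Cdc45 was at 10.5 and 4.15 CPM (-1.34) and the GINS subunit Gins2 at 4.84 and 1.87 CPM (-1.37). Gins1, a second subunit of the same complex, was at 1.75 and 1.35 CPM, within 1.5-fold. Of the polymerase genes, Pola1, the catalytic subunit of polymerase alpha, had the lowest ratio of the set, with 2.71 and 0.519 CPM and a log2 ratio of -2.38 (interval -3.50 to -1.42). Prim1, its primase partner, was at 7.20 and 3.38 CPM (-1.09).

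Of the clamp and clamp loader genes, some were lower and others within 1.5-fold. Pcna, the sliding clamp itself, stood at 30.3 CPM in Wild Type but at 13 in PyMT (log2 ratio -1.22). Its partner 2810417H13Rik was at 119 and 63.5 CPM (-0.91). The loader subunit Rfc5 was at 9.11 and 5.35 CPM (-0.77). Rfc4 and Rfc2, subunits of the same loader, were within 1.5-fold, at 6.06 and 4.41 CPM and at 36.6 and 30.8 CPM. The log2 intervals of Rfc5, -1.12 to -0.43, and Rfc4, -0.85 to -0.07, overlapped, so these subunits were not told apart. Rows of processed Pcna copies can share its reads: 1 such row, Pcna-ps2, held 74 UMIs in the whole Wild Type library and 85 in PyMT.

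The genes of strand completion and of nucleotide supply followed the same direction. Lig1, the ligase that seals Okazaki fragments, was at 18.4 and 8.88 CPM (log2 ratio -1.05), and Rpa2, which coats single strands, at 7.81 and 3.69 CPM (-1.08). Fen1, the flap nuclease, was within 1.5-fold at 6.79 and 4.62 CPM. Nucleotide supply was lower for 5 of 5 members, beside 39.8% of all genes, with a summed level of 141 and 57.6 CPM. Dut, which removes dUTP, stood at 48.7 and 14.5 CPM with a log2 ratio of -1.75 (interval -1.94 to -1.56), and Rrm2 at 48.0 and 22.6 CPM with one of -1.08 (-1.24 to -0.92). The thymidylate synthase gene Tyms, the thymidine kinase gene Tk1 and the large reductase subunit Rrm1 had ratios of -1.14, -1.19 and -1.02.

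Among chromatin genes, Uhrf1, which guides maintenance methylation to new DNA, was at 9.45 and 3.38 CPM (log2 ratio -1.49). The histone chaperone subunit Chaf1b was at 11.8 and 5.25 CPM (-1.17). Slbp was at 68.2 and 48.1 CPM, within 1.5-fold. The cyclins of S-phase entry, Ccne1 at 6.52 and 3.12 CPM and Ccne2 at 7.74 and 3.84 CPM, were both lower. The 5 measured members within 1.5-fold were therefore Gins1, Rfc2, Rfc4, Fen1 and Slbp. Of these, the interval of Gins1 alone included 0. The 10 members with the longer E2F letters had a median log2 ratio of -1.07 in this class and the 17 without them one of -1.08.

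**Figure D2:**
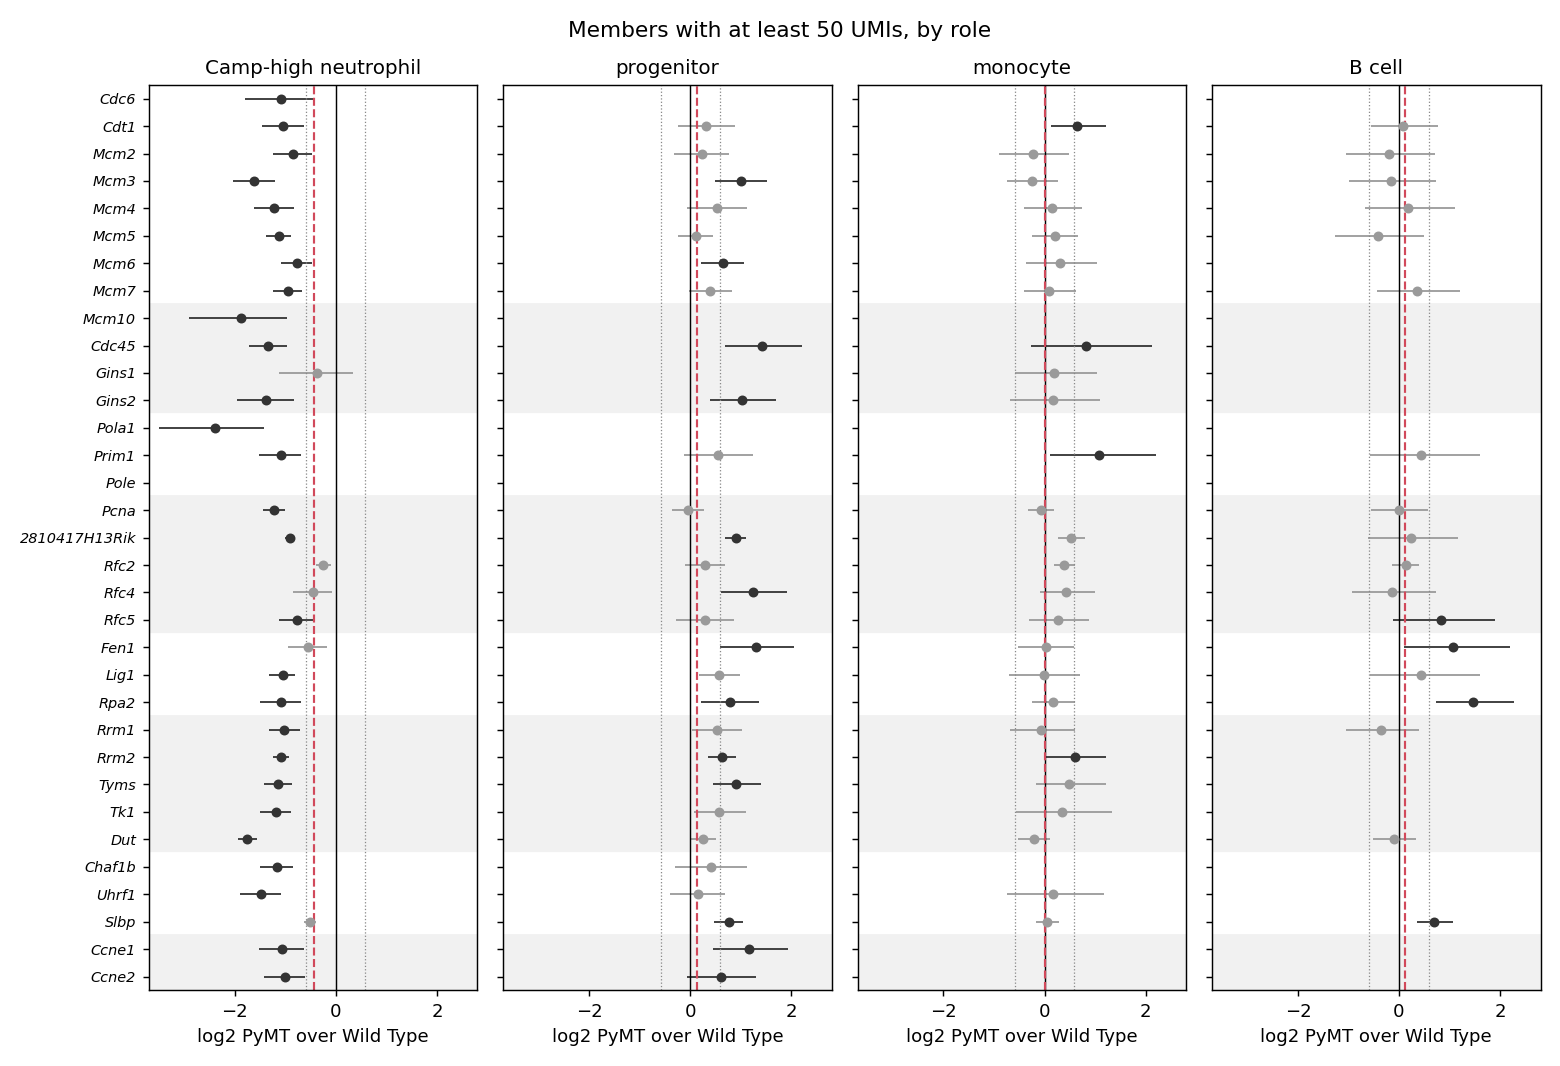
Log2 ratio of PyMT over Wild Type for each member with at least 50 UMIs, ordered by role, in 4 classes; points are ratios of 1 library over 1 library, bars 95% counting intervals, black points at least 1.5-fold, dotted lines 1.5-fold and the red dashed line the median of all genes. In Camp-high neutrophils 27 of 32 members lie at least 1.5-fold lower, beside 39.8% of all genes. In progenitors 13 of 28 lie at least 1.5-fold higher, beside 16.4%.

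A lower class level can stand for fewer cycling cells or for less RNA in each, and the split of the class into positive and other cells is given as a description. The 305 positive Wild Type cells carried 2454 CPM of the set and the 68 positive PyMT cells 3070 (log2 ratio 0.32, 0.27 to 0.38). The remaining cells carried 172 CPM and 123, a ratio of -0.49 (-0.56 to -0.41). Both groups of cells were chosen on these same UMIs, so the levels describe the choice, and fewer cycling cells and less RNA in each cannot be told apart from them. After thinning, 70.8% of Wild Type and 72.4% of PyMT Camp-high cells held 0 member UMIs, and 67 and 20 cells held 10 or more.

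**Figure D3:**
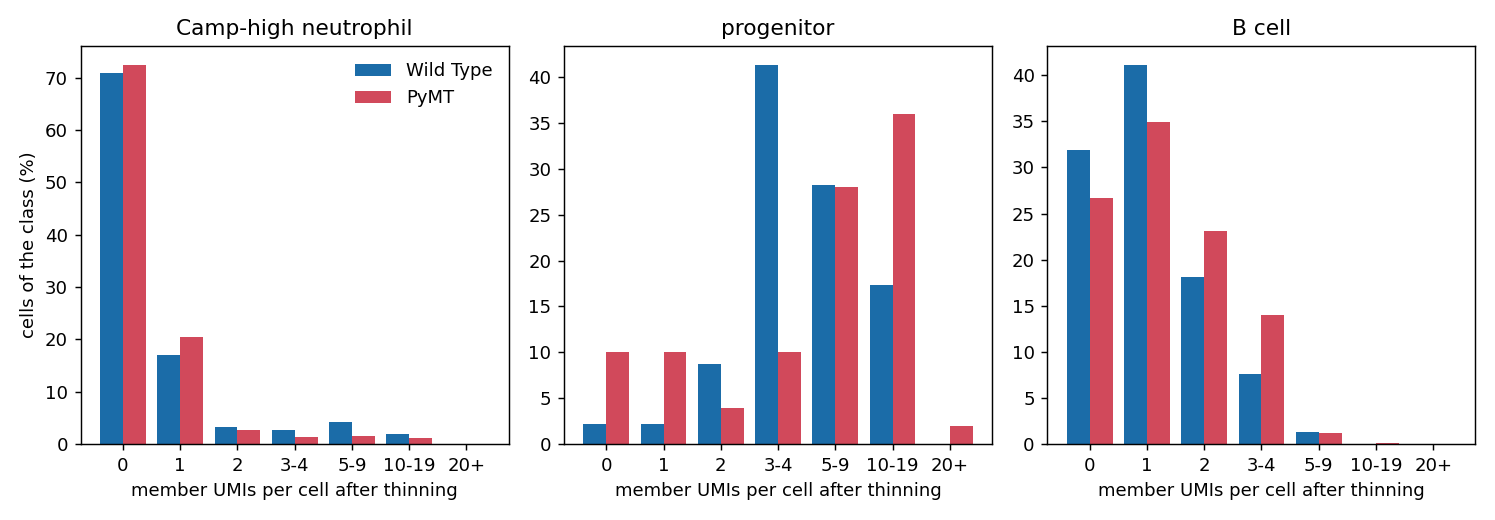
Percent of cells of a class (vertical axis) by number of member UMIs per cell after thinning to 2500 UMIs (horizontal axis), in Camp-high neutrophils, progenitors and B cells of the Wild Type (blue) and PyMT (red) libraries. In Camp-high neutrophils 70.8% and 72.4% of cells hold 0, and 38.0% of PyMT progenitors hold 10 or more against 17.4% in Wild Type.

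The makeup of the set within positive Camp-high cells was alike in order and differed for single members. 2810417H13Rik gave 22.6% of their member UMIs in Wild Type and 20.9% in PyMT. Rrm2 gave 9.30% and 10.5%, Slbp 8.30% and 10.3%, and Pcna 5.15% and 4.38%. Dut gave 9.28% and 6.14%, the lower share in PyMT, while Mcm6 gave 2.12% and 3.19%, the higher. In the remaining cells Rfc2 stood at 26.3 and 25.8 CPM and 2810417H13Rik at 21.5 and 25.0. Rrm2, at 7.38 and 2.60 CPM, and Dut, at 8.41 and 2.88, were lower in the remaining PyMT cells.

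Positive Camp-high cells differed from the others in genes outside the set. Mki67, a marker of cycling cells, was at 160 CPM in positive and 11.7 in other Wild Type cells, and at 130 and 9.03 in PyMT. Top2a, a topoisomerase gene of late cycle, was at 208 and 11.8, and at 198 and 4.10. Mmp8, a collagenase gene of later granule stages, was lower in the positive cells, at 217 and 836 CPM in Wild Type and at 95.6 and 413 in PyMT. The positive cells therefore carried cycling genes in both libraries, as the name of the set says.

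Retnlg, another late neutrophil gene, was at 1679 and 5766 CPM and at 1851 and 5229. Camp did not separate them, with medians of 6.85% and 7.34% in Wild Type and 4.80% and 4.86% in PyMT. Positive cells were deeper, with medians of 13806 UMIs against 5549 in Wild Type and 17603 against 11440 in PyMT. Cells most like simulated doublets were 5.25% of positive and 3.08% of other cells in Wild Type and 4.41% and 2.40% in PyMT. With such cells left out of the class the ratio of the set kept its direction.

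Mitosis genes were found in part of the positive cells, at shares that differed between classes. Of 21 genes with peak levels in mitosis, at least 3 UMIs were found in 42.6% of positive Camp-high cells in Wild Type (130 of 305, 37.0 to 48.4%) and in 41.2% in PyMT (28 of 68, 29.4 to 53.8%). Among the other cells the shares were 1.28% and 1.75%. In Camp-mid neutrophils of PyMT it was 45.1% (23 of 51), whereas 1 of the 20 positive Wild Type cells had them. In monocytes the shares were 12.5% (5 of 40) and 26.9% (25 of 93). In B cells they were 0 of 27 and 1.82% of 165. Positive B cells thus carried members of the set with few mitosis UMIs.

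How tightly each member keeps to such cells was measured as the percent of its UMIs found in cells with at least 3 UMIs of the other members, without thinning. These cells were 13.2 to 15.5% of Wild Type Camp-high cells, depending on the member left out, and held 28.2 to 31.6% of the class UMIs. In PyMT they were 13.5 to 18.5% of cells with 19 to 25.3% of the UMIs. The median member had 94.5% of its UMIs there in Wild Type (31 members with at least 50 UMIs in that library) and 86.6% in PyMT (27 members). Mcm6 had 98.0% and 97.6%, Prim1 97.9% and 98.5%, and Rrm2 97.6% and 96.6%.

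At the other end were Chaf1b at 48.2% and 41.6%, Rfc2 at 51.8% and 34.0% and Slbp at 65.1% and 50.8%. In the cells with fewer than 3 UMIs of other members, Slbp stood at 33.1 and 29.2 CPM and Rfc2 at 24.8 and 25.8. Chaf1b was lower there, at 8.79 and 4.04 CPM. Rfc2 and Slbp were also among the 5 whose class level was within 1.5-fold. Rrm2 and Slbp, both without E2F letters in the windows printed above, thus stood at opposite ends. Over the matched members, the median was 95.6% for the 10 with the letters and 94.1% for the 17 without.

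**Figure D4:**
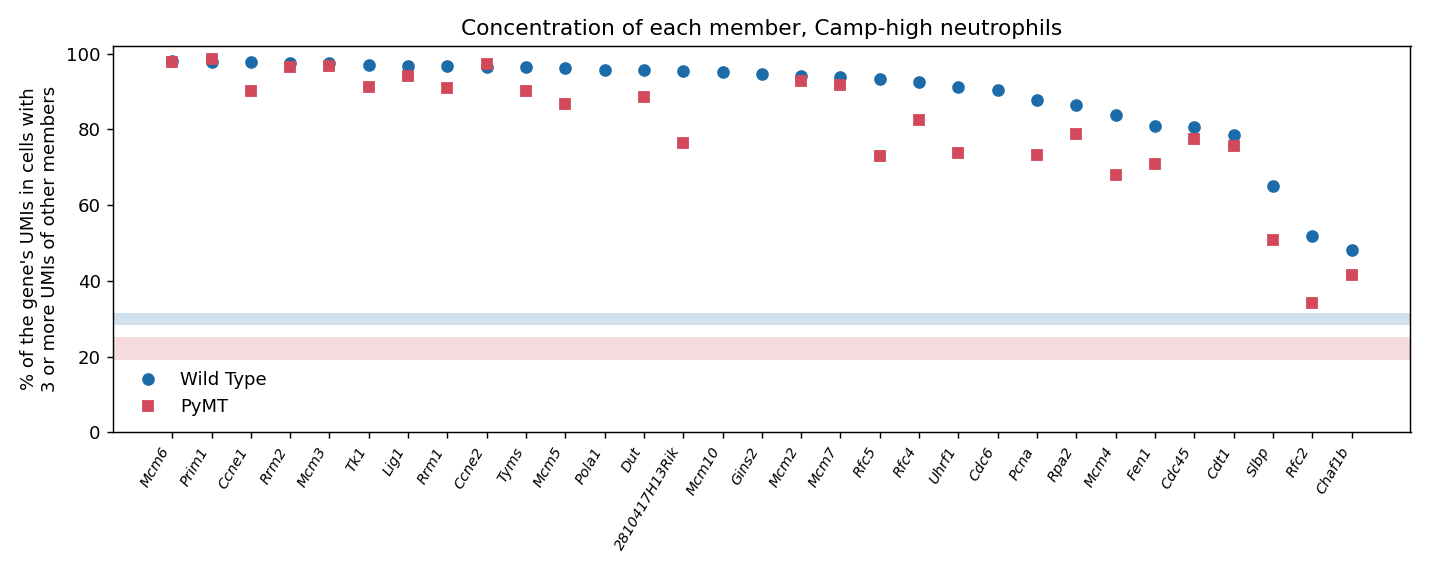
Percent of each member's UMIs that lay in cells with at least 3 UMIs of other members, in Camp-high neutrophils of Wild Type (blue circles) and PyMT (red squares), for members with at least 50 UMIs in the library; bands show the percent of all class UMIs held by those cells. Most members lie above 80% in Wild Type, and Slbp, Rfc2 and Chaf1b lie lowest.

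Because Camp differed between the libraries, the set was also followed along Camp in all neutrophils. In Wild Type its level was 297 CPM at 1 to 2% Camp, 466 at 3 to 4%, 714 at 5 to 6% and 833 at 6 to 7%, the highest bin, and 354 at 8 to 10%. In PyMT the highest bin with at least 100 cells was 4 to 5%, at 352 CPM, followed by 251 at 5 to 6% and 195 at 6 to 7%. Among bins of at least 100 cells the level peaked at a lower Camp share in PyMT and, scaled to the total of each bin, was lower there in most bins. At 2 to 3% Camp the log2 ratio was -0.09, with an interval of -0.30 to 0.13. It was -0.80 (-0.88 to -0.72) at 4 to 5% and -2.09 at 6 to 7%, where 678 Wild Type and 148 PyMT cells lay. At 7 to 8% it was 0.00, with 602 CPM in Wild Type and 601 CPM (495 to 723) in 21 PyMT cells, the highest PyMT value of any bin.

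**Figure D5:**
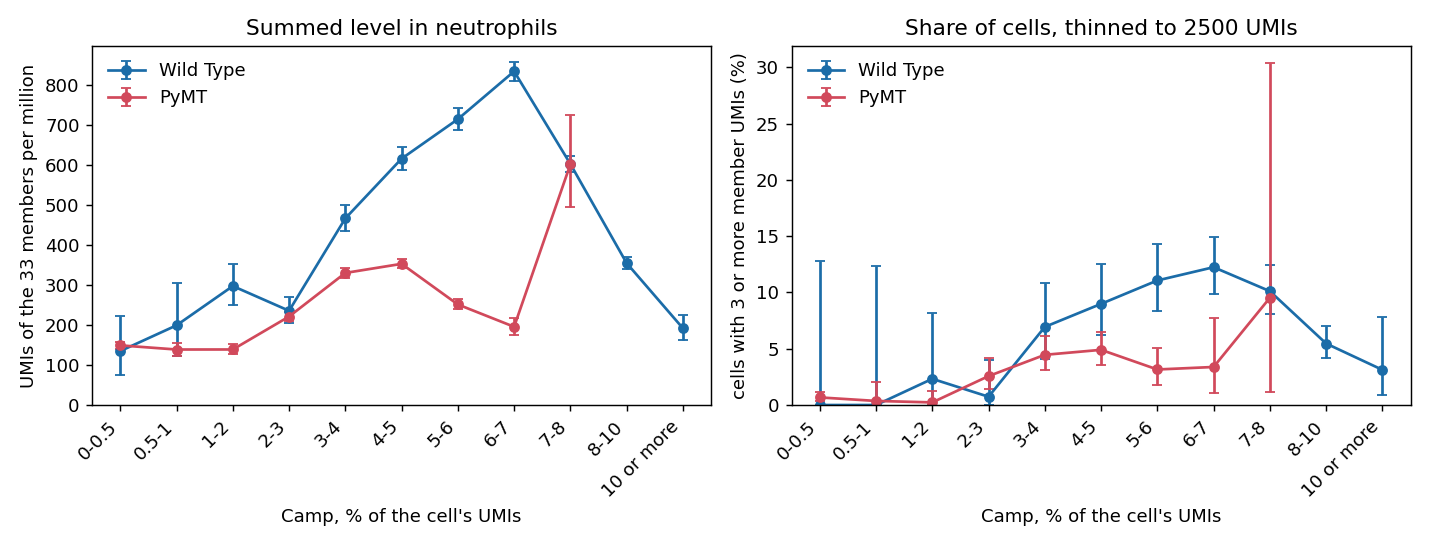
Summed level of the set (left, CPM) and share of cells with at least 3 member UMIs after thinning (right, %) by the percent of a cell's UMIs that come from Camp, in neutrophils of Wild Type (blue) and PyMT (red); bins with at least 20 cells, bars are 95% counting intervals. Wild Type peaks at 833 CPM at 6 to 7% Camp and PyMT at 352 CPM at 4 to 5%, apart from a bin of 21 PyMT cells at 7 to 8%.

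Dividing each library's neutrophils into 3 equal parts by their own rank of Camp gave another view, chosen after the values were seen. In the top part the set stood at 363 and 331 CPM, a log2 ratio of -0.13, at median Camp of 8.67% and 4.76%. In the middle part it stood at 733 and 208 CPM, a ratio of -1.81, and in the lowest at 573 and 147, a ratio of -1.96. The top parts thus differed less than the Camp-high classes, at -0.95, and the middle and lowest parts differed more. The parts are not the classes: the top Wild Type part held 1314 cells, against 3420 Camp-high cells. Most Wild Type Camp-high cells therefore lay in the other parts. Over all neutrophils without a split, 3942 in Wild Type and 5465 in PyMT, the levels were 566 and 254 CPM, a ratio of -1.16, and the positive shares were 8.24% and 2.42%.

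Progenitors, the class with the highest levels, had higher levels of the set in PyMT. Of 28 members with at least 50 UMIs, 13 were at least 1.5-fold higher and 0 lower, beside 16.4% higher and 7.77% lower among all 3554 genes so measured. The median log2 ratio of the members was 0.58 and that of all genes 0.13. The summed set had a log2 ratio of 0.56 (0.48 to 0.63). Cdc45 stood at 21.5 CPM in Wild Type but at 57.6 in PyMT, a ratio of 1.42. Fen1, at 23.4 and 57.6 CPM, and Rfc4, at 29.3 and 69.3, had ratios of 1.30 and 1.24, and these were the 3 largest.

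Ccne1 (23.4 and 52.7 CPM), Gins2 (30.2 and 61.5), Mcm3 (48.8 and 97.6), Tyms (57.5 and 108) and 2810417H13Rik (270 and 503) were also higher. Rpa2, Slbp, Mcm6, Rrm2 and Ccne2 completed the 13, with ratios of 0.78, 0.76, 0.64, 0.63 and 0.62, of which that of Ccne2 had an interval including 0. Pcna, at 159 and 154 CPM, Mcm5, at 129 and 139, and Dut, at 236 and 280, were within 1.5-fold. These were not the only ones, since measured members within 1.5-fold outnumbered the 13. Among them were also Mcm2 (0.22), Mcm7 (0.39), Uhrf1 (0.15) and, close to the limit, Tk1 (0.58).

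The class was mixed in both libraries. Cells with at least 10 member UMIs after thinning were 8 of 46 in Wild Type (17.4%) and 19 of 50 in PyMT (38.0%), while cells with 0 were 1 and 5. The 12 PyMT progenitors under 3 member UMIs had a median of 10389.5 UMIs, with Elane at 205 CPM and Mpo at 34.2. In the 6 such Wild Type cells Elane was at 4434 CPM. The median progenitor had 5.47% Camp in Wild Type. With 1 PyMT cell left out that held at least 3 UMIs of basophil and mast cell genes, an alternative added after the values were seen, the median Camp of the other 49 was 0.42% and their level 3269 CPM. The summed basophil and mast cell markers were at 0 and 1426 CPM with that cell included. Dendritic cell markers summed to 954 CPM in Wild Type (5 of 9 detected, Zbtb46, Cd209a, Clec9a and Siglech at 0) and 76.2 in PyMT (4 of 9, those and Xcr1 at 0). The part of such mixture in the ratio of the set was not tested beyond that cell.

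Camp-mid neutrophils showed a split between members, and the direction of the set in them depends on the scaling. Per class total, 17 of 27 members with at least 50 UMIs were at least 1.5-fold lower in PyMT and 0 higher, beside 50.2% lower and 5.16% higher among all genes, so the members' share was near the background. The log2 ratio of the set was -0.56 (-0.65 to -0.46), and the median of the members was -0.82 against -0.59 for all genes. With a trimmed mean of M-values, which moved log2 ratios by 0.76 in this class, the set had a ratio of 0.20, with 5 members higher and 5 lower, beside 26.9% and 16.1% of all genes.

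Members lay far apart in this class whatever the scaling. Uhrf1 was at 8.98 and 2.15 CPM, a ratio of -2.06, Mcm2 at 9.30 and 2.26 (-2.04) and Pcna at 29.5 and 10.7 (-1.46), whereas Rrm2 was at 15.7 and 17.0 (0.11) and 2810417H13Rik at 44.2 and 46.2 (0.06). The positive Wild Type cells had a median of 14.5% S100a8 and S100a9 against 36.7% in the other Camp-mid cells. In PyMT these were 30.3% and 37.0%. Markers of the dendritic list, whose sum was highest in B cells, stood at 1972 CPM in the Wild Type class. There 6 of 9 were detected, with Clec9a, Xcr1 and Siglech at 0. In PyMT they summed to 141 CPM, with 7 of 9 detected and Clec9a and Siglech at 0. Their part in the Camp-mid ratio was not tested.

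Camp-low neutrophils had too few Wild Type cells for most members. The log2 ratio of the set was -0.18, with an interval of -0.65 to 0.34, from 36 UMIs in Wild Type and 1465 in PyMT. Of the 3 members with at least 50 UMIs, 0 were higher and 1 lower, beside 19.4% higher and 27.8% lower among all genes. Slbp was at 59.9 and 39.0 CPM, a ratio of -0.62 with an interval of -1.41 to 0.30. Rfc2 was at 73.8 and 61.2 CPM and Pcna at 4.61 and 6.31. A difference was not detectable at this depth.

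Monocytes had slightly higher levels of the set in PyMT. Of 26 members with at least 50 UMIs, 4 were higher and 0 lower, beside 7.71% higher and 9% lower among all genes. The log2 ratio of the set was 0.20 (0.12 to 0.28), with a member median of 0.18 and a median of all genes of 0.00. Prim1 was at 2.60 and 5.50 CPM, a ratio of 1.08, Cdt1 at 9.10 and 14.3 (0.65) and Rrm2 at 8.06 and 12.2 (0.60). Cdc45, at 2.08 and 3.69 CPM, had a ratio of 0.83 with an interval of -0.27 to 2.12. 2810417H13Rik, at 36.1 and 52.3 CPM, and Rfc2, at 61.6 and 80.4, were within 1.5-fold, with intervals above 0.

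Positive monocytes, chosen on the same UMIs, stood at 1785 and 2376 CPM and the others at 279 and 296 CPM. Without the 71 cells per library that also met the B cell rule the levels were 379 and 450 CPM. The share of positive cells did not differ beyond its interval, as given above.

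B cells had a slightly higher summed level of the set in PyMT, with few members called and a member median near that of all genes. Of 18 members with at least 50 UMIs, 4 were higher and 0 lower, beside 12.9% higher and 4.19% lower among all genes. For the set the ratio was 0.26 (0.13 to 0.40), the member median 0.16 and that of all genes 0.11. Rpa2 was at 13 and 35.7 CPM, a ratio of 1.46, Fen1 at 7.65 and 16.1 (1.07) and Slbp at 58.9 and 95.8 (0.70). Rfc5, at 8.41 and 14.9 CPM, had a ratio of 0.82 with an interval that included 0. Of the helicase ring, Mcm2, Mcm3, Mcm4, Mcm5 and Mcm7 lay within 1.5-fold, with wide intervals such as -0.43 to 1.21 for Mcm7, and Mcm6 had under 50 UMIs.

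Most B cells held few member UMIs. At least 5 after thinning were found in 4 of 304 Wild Type cells (1.32%), and in PyMT 14 cells held at least 5, which is 1.30%, although the share with at least 3 was larger in PyMT. Erythroid markers summed to 30.6 CPM in Wild Type B cells, with 5 of 11 detected, and to 2913 in PyMT, with 10 of 11 detected and Epor at 0. The 26 PyMT B cells with at least 3 erythroid UMIs carried 1303 CPM of the set. Without such cells, an alternative added after the values were seen, the levels were 466 and 532 CPM, a log2 ratio of 0.19, and the positive shares 8.61% and 15%.

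Other genes of the same pathways, in 4 lists, were described in the same classes. In Camp-high neutrophils 26 of 35 further replication genes were lower and 0 higher, with a median log2 ratio of -0.93, beside 39.8% lower, 3.36% higher and a median of -0.43 among all genes of the class. The farthest were Ticrr (-2.59), a factor of origin firing, Atad5 (-2.03), which unloads the clamp, Cdc7 (-1.85), a kinase that activates the helicase, and Gins3 (-1.69). Of 31 genes of S-phase chromatin, repair and nucleotide supply 27 were lower and 0 higher, with a median of -1.16, led by Brca2 (-2.34), Exo1 (-1.95), Hells (-1.88) and Msh6 (-1.82), of which Exo1 and Msh6 act in mismatch repair.

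Of 24 E2F, cyclin and inhibitor genes 15 were lower and 1 higher, beside 39.8% lower and 3.36% higher among all genes. Their median was -1.04, although their summed level was 1090 and 1098 CPM. Cdkn1a, which encodes the inhibitor p21, had a ratio of -2.30, and the repressors E2f6 and E2f7 ratios of -1.99 and -1.84. Rbl1, an Rb relative, stood at -1.60. Of 40 mitosis genes 19 were lower and 0 higher, beside the same shares of all genes. Their median was -0.54, close to the -0.43 of all genes. Anln, Kif11, Top2a and Ttk were farthest, at -1.95, -1.58, -1.56 and -1.35.

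In progenitors the 4 lists had 6 of 18, 8 of 22, 6 of 13 and 14 of 24 genes higher and 0 lower, beside 16.4% higher and 7.77% lower among all genes. The summed log2 ratio of the further replication genes was 0.18 (0.07 to 0.28), under the 0.56 of the summed members. Their median log2 ratio was 0.36, against 0.13 for all genes and 0.58 for the members. Among the genes of the 4 lists Ccnb1, the mitotic cyclin, had a ratio of 1.59. Cdk1, its kinase, had one of 0.91, and Dck, a nucleoside kinase, one of 1.29. In Camp-mid neutrophils 15 of 20 further replication genes were lower per class total and 0 higher, beside 50.2% and 5.16% of all genes. Their median log2 ratio was -0.71, near the -0.59 of all genes. Of 36 mitosis genes 21 were higher and 0 lower, beside the same shares of all genes, with a median of 0.66. These counts were not recomputed with other scalings. Plk1, a mitotic kinase, had a ratio of 2.1 and Cdc20, which directs mitotic exit, one of 1.84, against -2.03 for the nuclease gene Dna2.

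In monocytes 1 of 26 further replication genes, Orc2 at 1.04, was higher and 0 lower, while 11 of 34 mitosis genes were higher and 0 lower, with Tpx2 and Cdca3 at 1.21 and 1.08, beside 7.71% higher and 9% lower among all genes. In B cells 4 of 22 further replication genes were higher and 0 lower, with Orc2 at 1.38, and 0 of 8 mitosis genes passed 1.5-fold in either direction, beside 12.9% higher and 4.19% lower among all genes. The counts of further replication genes in monocytes and B cells were thus near or under the shares over all genes.

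Across the 12 sums of 2 libraries and 6 classes, the 12 genes outside the set most like its summed level were found among 8947 genes by Pearson's r of log2 levels. They were Syce2 and Rad54l (0.99), Smc4, Ube2s and Tipin (0.98), Hells, Clspn and Mtf1 (0.97), and Zfp367, Mms22l, Dgcr6 and Apitd1 (0.96). The 12 sums share libraries and classes, and the progenitor sums stand far above the rest, so r is a description. Of the members, Mcm7 followed the sum most closely (0.99) and Rfc2 least (0.49).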

How the data were processed

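CD11b+ Gr1+ spleen cells were sorted, loaded on the 10x Chromium platform and sequenced as 3′ libraries, per the labels' protocols. Per the submitters' processing notes, Cell Ranger 2.1.0 and mm10 were used. The deposited files hold raw UMI counts per gene and cell; the lowest cell held 2752 UMIs in Wild Type and 2502 in PyMT, and the origin of that limit is not stated in the sources used here.

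A filter of 200 or more genes and no more than 10% mitochondrial UMIs per cell removed 5 PyMT cells. Groups follow the submitters' titles. Counts were summed per library and class in Python 3.11.15 (numpy 2.4.6, scipy 1.17.1) and scaled to the class total. Levels have exact Poisson intervals, ratios exact conditional intervals and shares Clopper-Pearson intervals. Thinning drew 2500 UMIs per cell. With 1 library per group no p-value was computed. The floor for a sum of 0 UMIs was 3 counts. Doublets stayed in; as an alternative, the cells nearest to simulated doublets were removed, 0.8% for each 1000 cells of the library (scikit-learn 1.9.0). Sums were tested on simulated data. Gene positions are from GENCODE on GRCm38, and promoter windows from RefSeq on GRCm38.p6; sequences were matched by symbol.

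All 33 members were described; of each pathway list and class, up to 4 genes with at least 50 UMIs and the farthest ratios could be named, and 12 genes by their similarity. The members and lists were chosen with earlier results of these data known. The list of 21 mitosis genes, the bound of 10 UMIs per cell and the added alternatives were chosen after values were seen. Alternatives were other scalings, thinning depths, bounds for a positive cell, cell filters, stricter class limits, doublets left out, members left out and UMI minimums. Mcm7, Cdt1, Rrm1, Pole, Pola1, Chaf1b and 2810417H13Rik overlap another gene on the same strand, so their counts are less certain. Figures were drawn with matplotlib 3.10.9.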

Additional observations from a re-analysis of the deposited data

Results flagged for a closer look

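The ratio of the set went opposite ways in different classes of the same pair of libraries. The log2 ratio of PyMT over Wild Type was 0.56 in progenitors, 0.20 in monocytes and 0.26 in B cells, and -0.95 in Camp-high and -0.56 in Camp-mid neutrophils. The difference between classes was not tested, since each class has 1 value per library. The Camp-mid direction turned under 3 alternatives, given under the processing.

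Cells in no class also carried the set. PyMT cells of no class with under 5% of UMIs from S100a8 and S100a9 stood at 1161 CPM (302 cells, 1107 to 1218), and the Wild Type cells at 767 CPM (135 cells, 698 to 840). Of these, 30 PyMT cells with at least 3 erythroid UMIs stood at 3555 CPM, and without such cells the levels were 697 CPM (272 cells) and 711 CPM (134 cells).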

How the results depend on the processing

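With 1 library per group, leaving out a replicate was not possible. No paired analysis was possible because each group has 1 library. Under the alternatives listed with the processing, 36 recomputed set ratios and 35 share differences moved by less than the counting interval of the value reported.

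In progenitors the set ratio was 0.42 with the median of ratios, 0.40 without the 50 most abundant genes in the total, 0.32 with equal weight per cell and 0.91 with stricter classes. In Camp-high neutrophils it was -0.51 with a trimmed mean of M-values and with the median of ratios, -0.79 without the 50 genes, -0.58 with equal weight, -1.04 without the 3 most abundant members, -1.15 with stricter classes, -0.13 in the top part by Camp rank and -1.16 over all neutrophils. In Camp-mid neutrophils it turned to 0.20 with a trimmed mean, 0.032 with the median of ratios and 0.22 with stricter classes; it was -0.11 without the 50 genes, -0.39 with equal weight, -0.90 without the 3 members, -0.65 without doublets and -1.81 in the middle part by rank. In Camp-low neutrophils it was 0.54 without the 3 members and -1.96 in the lowest part. The parts by Camp rank hold a different set of cells from the classes they are set beside. The cause of these shifts was not tested.

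The share difference, in percentage points, was 10.3 in progenitors at 1000 UMIs per cell, 20.3 with at least 5 UMIs and 18.5 with stricter classes, so the progenitor share has no stable direction. In Camp-high neutrophils it was 2.98 without thinning, -1.78 at 1000 UMIs and -1.38 by rank. In Camp-mid neutrophils it was 1.36 without thinning, 1.76 with stricter classes and -9.08 by rank. In Camp-low neutrophils it was 1.08 with at least 2 UMIs and -7.03 by rank. In monocytes it was 11.1 without thinning and 1.95 with at least 2 UMIs. In B cells it was -0.49 at 1000 UMIs, 11.4 with at least 2 and -0.021 with at least 5.

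Counts of members called differed by over 1.5 times as follows. Camp-mid members lower were 5 of 27 with a trimmed mean and 8 of 27 with the median of ratios, beside 16.1% and 22.1% of all genes. They were 2 of 6 at 200 UMIs and 1 of 6 with stricter classes, beside 40.2% and 28.1%. Camp-mid members higher were 5 of 27, 3 of 27 and, with stricter classes, 2 of 6, beside 26.9%, 19.3% and 11.3%. Camp-low members lower were 0 of 3 with a trimmed mean and with the median of ratios, beside 13.01% and 22.89% of all genes. At 10 UMIs they were 5 of 18, beside 32.2%. With a trimmed mean 1 of 3 was higher, beside 34.9%. At 200 UMIs, 3 of 8 progenitor, 1 of 8 monocyte and 1 of 3 B cell members were higher, beside 13.9%, 5.91% and 7.70% of all genes. At 10 UMIs, 2 of 33 progenitor members were lower, beside 16.4% of all genes. In B cells 7 of 28 were then higher and 2 lower, beside 17.2% and 9.49%. The shorter E2F letters gave 63.0% of members.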
